A study of Mus musculus with 22 samples.

Results

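The chemokine receptors of lymphocytes described here are Ccr2, Ccr4, Ccr6, Ccr8, Ccr9, Ccr10, Cxcr3, Cxcr4 and Cxcr6. They were chosen by name, not by a measured value, and make up 9 of the 24911 genes in each deposited table. Their messenger RNA was read in 22 mouse libraries, and no group had a second one. Of these, 9 were CD4 T cells. Non-Tfh cells were sorted as CD4+CD44+CXCR5-PD1-CD25- and labelled activated, Tfr (follicular regulatory) cells were sorted as CD4+CD44+CXCR5+PD1+CD25+, and Tfh (follicular helper) cells and CD4+ T cells carry no sort markers in their labels. Each of these 4 populations had an unmarked library and a library labelled MUT or Mut. The labels do not name the gene or allele behind that word, and give no age or sex. The ninth T library was CD4+ T cells activated with ConA (concanavalin A, a plant lectin that stimulates T cells). A further 7 libraries were primary B cells, whose mature B cells were, per the labels, taken from spleens of C57BL/6J mice and enriched by removing other cells. They were splenic B cells and 6 cultures activated with aBCD180, aCD40+IL4, LPS (lipopolysaccharide) alone, or LPS with a-d-dextran, IL21 or IL4. The other 6 libraries were back skin, basophils, 3 brain regions (medulla oblongata, putamen and sensorimotor cortex) and CH12, a B-lymphoma line of which clone bc5 alone was used.

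Chemokine receptors are G-protein-coupled receptors through which leukocytes sense gradients of small secreted proteins, the chemokines, and move towards them. Cxcr3 is the receptor for the interferon-induced ligands Cxcl9 and Cxcl10, Cxcr6 for Cxcl16 and Ccr2 for Ccl2 and its relatives, and these receptors are known from effector T cells and, for Ccr2, from monocytes. Ccr4 (ligands Ccl17 and Ccl22), Ccr8 (Ccl1 and Ccl8) and Ccr10 (Ccl27a and Ccl28) are known from T cells of skin and other barriers and from regulatory T cells. Ccr6 (Ccl20) and Ccr9 (Ccl25) are known from mucosal lymphocytes, and Cxcr4 (Cxcl12) holds cells in bone marrow and guides B cells within germinal centres.

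In the GENCODE annotation of GRCm38 (mm10), 5 of the 9 genes lie on chromosome 9. These are Ccr4 (chr9:114490316-114504916, minus strand), Ccr8 (chr9:120092114-120094906, plus strand), Ccr9 (chr9:123678439-123784330, plus strand), Cxcr6 (chr9:123806475-123811760, plus strand) and Ccr2 (chr9:124101950-124113557, plus strand). Cxcr4 lies at chr1:128588199-128592293 on the minus strand, Ccr10 at chr11:101172997-101175443 on the minus strand, Ccr6 at chr17:8236043-8257141 on the plus strand and Cxcr3 at chrX:101731535-101734269 on the minus strand. Exons of Ccr9 overlap exons of Slc6a20a, AC165425.1 and Gm17200. As the strand setting of the counting is not stated, reads from those places cannot be assigned to Ccr9 with certainty. Cxcr6 overlaps Fyco1 and Ccr10 overlaps Cntnap1, in both cases without shared exon bases. Counts of Ccr2 were not whole in 21 of 22 libraries, and those of Ccr4 in 8. Some reads of both genes were therefore split with other transcripts, and their values are uncertain to that extent.

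The sequences just upstream of the start sites are shown for Cxcr3, the leading receptor of sorted T cells, for Ccr4, Ccr8 and Cxcr6, whose levels moved with it across libraries, and for both RefSeq start sites of Ccr6, the leading receptor of most B cultures. They are RefSeq sequence of GRCm38.p6, read 5′ to 3′ on the gene's strand, and 8 of the 9 genes had an entry. Each ends before the first annotated exon base met in its window. The Ccr4 window and the second Ccr6 window lie within the annotated spans of their genes, downstream of the annotated 5′ ends. Capitals mark matches to the AP-1 motif TGANTCA or the NFAT core TGGAAA on either strand. The positions are chrX:101734270-101734397 (minus) for Cxcr3, chr9:114496563-114496794 (minus) for Ccr4, chr9:120091883-120092113 (plus) for Ccr8, chr9:123806227-123806474 (plus) for Cxcr6, and chr17:8235793-8236042 and chr17:8242276-8242525 (plus) for Ccr6.
Cxcr3: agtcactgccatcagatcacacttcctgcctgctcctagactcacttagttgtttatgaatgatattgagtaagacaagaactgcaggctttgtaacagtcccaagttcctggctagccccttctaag
Ccr4: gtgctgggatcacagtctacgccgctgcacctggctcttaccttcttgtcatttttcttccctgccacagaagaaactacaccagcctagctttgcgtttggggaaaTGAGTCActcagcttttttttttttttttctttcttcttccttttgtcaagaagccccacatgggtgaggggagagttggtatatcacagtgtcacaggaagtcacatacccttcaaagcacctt
Ccr8: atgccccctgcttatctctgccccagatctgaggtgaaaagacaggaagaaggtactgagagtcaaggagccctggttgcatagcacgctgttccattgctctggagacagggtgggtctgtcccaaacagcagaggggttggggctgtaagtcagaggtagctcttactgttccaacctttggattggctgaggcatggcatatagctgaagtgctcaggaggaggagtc
Cxcr6: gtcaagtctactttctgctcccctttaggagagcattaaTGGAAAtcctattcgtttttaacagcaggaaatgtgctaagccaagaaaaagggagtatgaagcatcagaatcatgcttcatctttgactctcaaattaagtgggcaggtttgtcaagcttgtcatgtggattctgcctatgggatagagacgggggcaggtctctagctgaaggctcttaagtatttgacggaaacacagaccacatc
Ccr6, start 1: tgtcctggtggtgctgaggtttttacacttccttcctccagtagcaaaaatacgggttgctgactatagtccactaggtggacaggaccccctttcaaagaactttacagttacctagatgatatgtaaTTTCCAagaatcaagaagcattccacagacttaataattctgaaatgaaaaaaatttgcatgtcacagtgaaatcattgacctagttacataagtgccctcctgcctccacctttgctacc
Ccr6, start 2: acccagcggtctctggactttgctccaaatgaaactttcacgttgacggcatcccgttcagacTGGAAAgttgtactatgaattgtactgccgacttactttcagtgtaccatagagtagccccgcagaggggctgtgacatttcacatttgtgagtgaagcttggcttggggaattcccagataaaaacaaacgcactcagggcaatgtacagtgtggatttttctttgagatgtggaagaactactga
Ccr4 held 1 AP-1 match, and Cxcr6 and each Ccr6 window held 1 NFAT match. Over 32851 RefSeq windows of 250 bases, 6.7% held the AP-1 motif and 18.6% the NFAT core. The T-box core GGTGTGA, searched because Tbx21 is a T-box factor, was found in 3.3% of those windows and in none of the printed sequences. These matches describe letters in a window and show no binding.

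Total expected counts per library ran from 30.8 to 147.9 M with a median of 46.2 M. At these depths 3 counts of a receptor corresponded to between 0.008 and 0.185 TPM (a level scaled for transcript length and for library size), depending on gene and library, and values below that are treated as not detected. Such floors cover counting error only. The 10 fixed B-cell markers summed to 2508 to 14005 TPM in primary B cells and the 10 T-cell markers to 3813 to 8985 TPM in CD4 T cells, and the brain and skin libraries held their own markers. The Tfh MUT and Tfr libraries held B-cell markers at 717 and 514 TPM, against 6.3 to 183 TPM in the other 7 T libraries. The aCD40+IL4 culture held CD8 and NK markers at 113 TPM, against at most 6.7 TPM in the other 5 activated cultures. In the ConA, splenic B, LPS+IL4 and CH12 tables, length minus effective length was 49.0 bases, against 48.56 or 48.57 bases in the other libraries. The source of this difference, in the reads or in their processing, is not stated. Its part in the results was not tested.

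The leading receptor differed between kinds of cell. Cxcr4 made up 91.6% of the summed TPM of the 9 receptors in CD4+ T cells and 81.5% in CD4+ MUT cells, where the sums were only 64.0 and 46.8 TPM. Cxcr3 led in all 6 libraries of sorted non-Tfh, Tfh and Tfr cells, with 26.5% to 54.4% of sums between 410 and 844 TPM. Ccr8 led in ConA-activated cells with 66.5% of 214 TPM. Among B cells, Cxcr4 led in splenic B cells (55.0% of 506 TPM) and in the LPS+IL4 culture (44.5% of 93.4 TPM), and Ccr6 led in the other 5 activated cultures with 63.7% to 79.5%. In basophils Ccr2 led with 75.8% of 461 TPM, and the brain regions summed to 5.2 to 11.5 TPM. In such bulk samples, fewer cells of a type and less RNA per cell cannot be told apart.

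**Figure D1:**
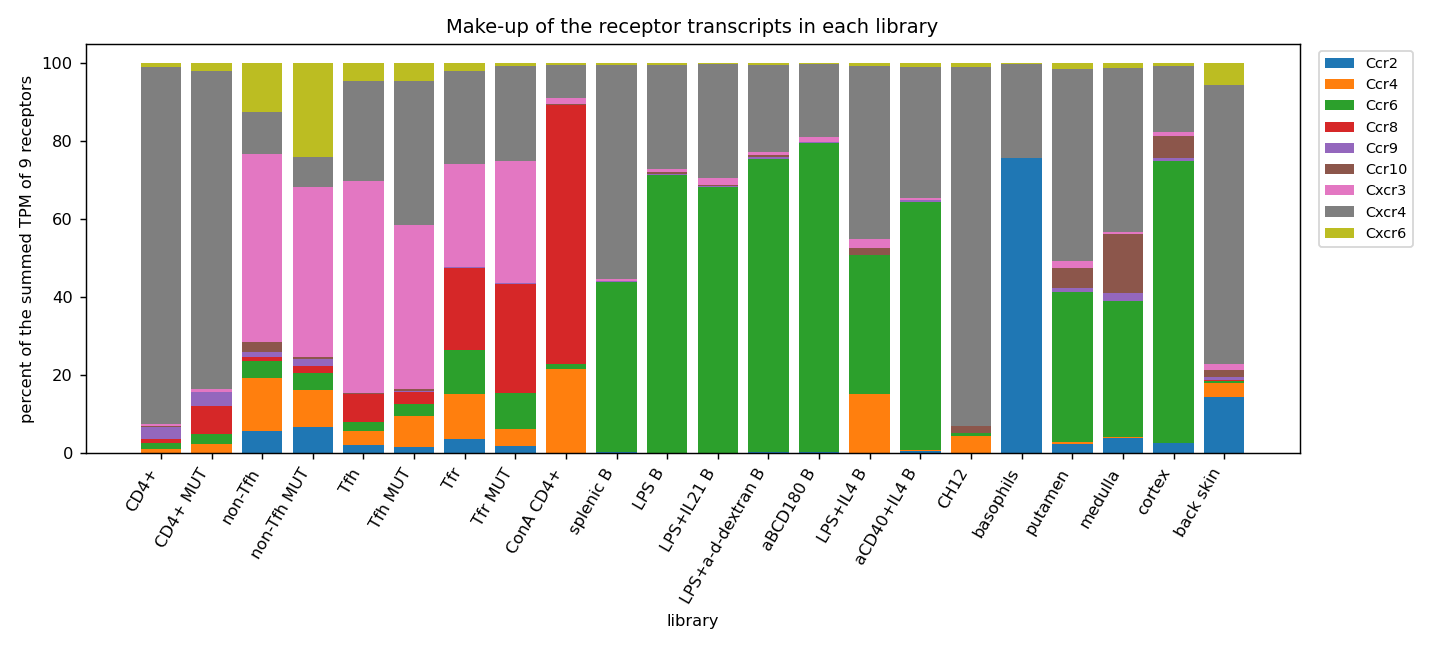
Share of each receptor (percent of the summed TPM of the 9 receptors, stacked to 100) in each of the 22 libraries, 1 bar per library. Cxcr4 fills 91.6% of the bar of CD4+ T cells, Cxcr3 is the largest block in all 6 sorted T libraries, Ccr8 in ConA-activated cells, Ccr6 in 5 of the 6 activated B cultures and Ccr2 in basophils.

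**Figure D2:**
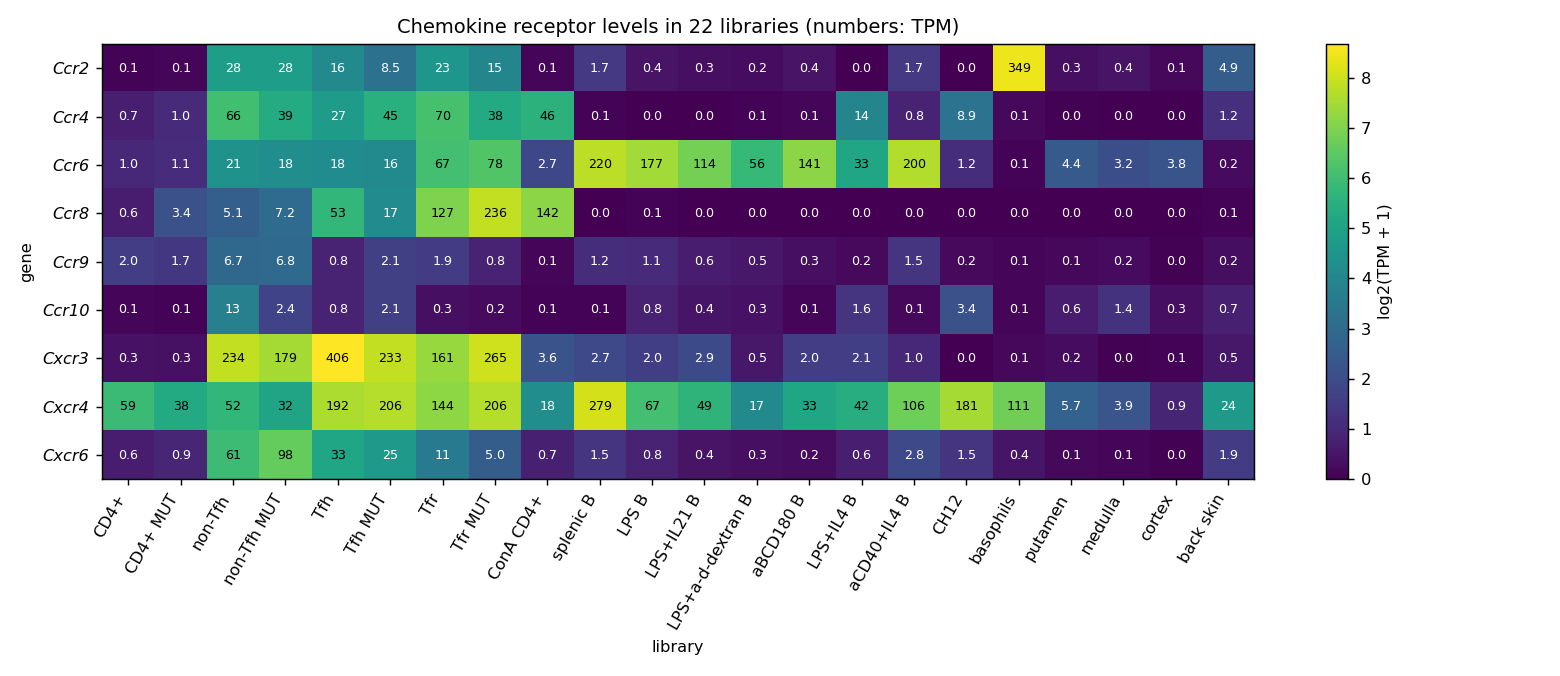
Level of each receptor (rows) in each library (columns), coloured by log2(TPM + 1) with the TPM written in each cell. Ccr8 is at or above 0.61 TPM in all 9 CD4 T libraries and at most 0.07 TPM in the other 13, whereas Cxcr4 is at 10 TPM or more in 19 of 22 libraries.

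The first question was how the sorted T populations differed from CD4+ T cells. Most of the receptors were higher in every sorted population, several of them from levels near the detection floor. Non-Tfh cells had 6 of 9 receptors higher and none lower, where 3.23% of the 13064 genes tested were higher, 0.62% lower and 3.85% either (edgeR quasi-likelihood test, adjusted p under 0.05, with the unmarked and MUT libraries giving the spread). Tfh cells had 8 of 9 higher, where 15.3% of all genes were higher, 11.2% lower and 26.4% either. Tfr cells had 7 of 9 higher, where 16.8% of all genes were higher, 13.6% lower and 30.4% either. The median log2 fold change of the 9 receptors was 5.83 in non-Tfh, 4.14 in Tfh and 5.67 in Tfr cells, against -0.01, 0.03 and 0.02 over all genes. All 3 comparisons share the same pair of CD4+ libraries, and whether the libraries stem from different animals is not given, so the p-values measure the spread between these libraries only. Without the Tfh MUT and Tfr libraries, Cxcr4 was lower in non-Tfh cells (-0.33 in log2) and Ccr9 lower in Tfh (-1.51) and Tfr cells (-1.37). That fit holds 1 unmarked Tfh and 1 Tfr MUT library, which are assumed to vary like the other populations. Both are fitted exactly, so its spread and its MUT term come from the CD4+ and non-Tfh pairs alone. The same limit holds wherever the Tfh MUT and Tfr libraries are left out together below. The 8 CD8 and NK markers did not all move alike. Of 7 tested, 4 rose and none fell in non-Tfh cells, 4 rose and 1 fell in Tfh cells, and 2 rose and 1 fell in Tfr cells, with a median log2 fold change of 5.06, 2.62 and -0.41. Their sum was 39.6 and 26.8 TPM in the CD4+ libraries and 94.2 to 366 TPM in the sorted ones, mostly Nkg7, which stood at 0.44 and 0.76 TPM in the CD4+ pair and 76.2 to 329 TPM in the sorted libraries. Cd8a stayed at or below 0.32 TPM in all 9 T libraries, whereas Cd8b1 stood at 22.6 and 18.6 TPM in the CD4+ pair, 29.6 TPM with ConA and 6.59 to 13.9 TPM in the sorted libraries. Klrd1 stood at 15.6 and 6.38 TPM in the CD4+ pair and at 0.58 and 0.42 TPM in the Tfr pair. The part of such cells in the receptor levels was not tested.

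**Figure D3:**
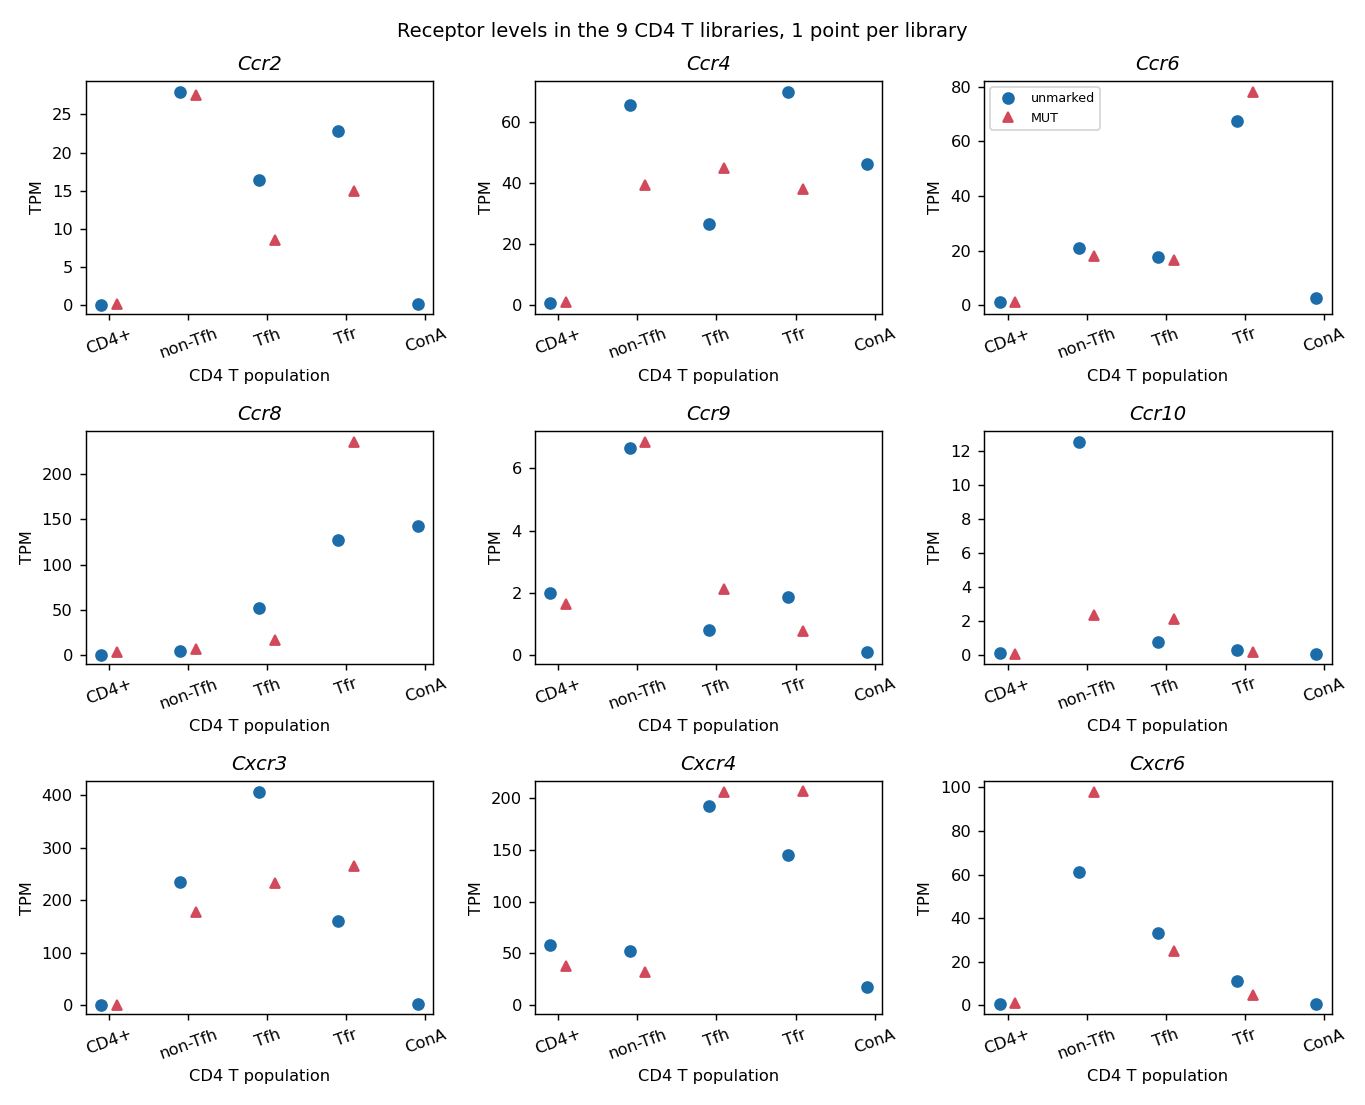
TPM of each receptor (vertical axis, linear, own scale per panel) in the 5 CD4 T populations, 1 point per library, circles for unmarked and triangles for MUT libraries. Cxcr3 lies at 161 to 406 TPM in all 6 sorted libraries and at or below 0.34 TPM in both CD4+ libraries, and Ccr8 is highest in Tfr and ConA-activated cells.

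Among the receptors of effector cells, Cxcr3 showed the largest difference. It stood at 0.34 TPM in CD4+ and 0.32 TPM in CD4+ MUT cells, 234 and 179 TPM in non-Tfh and non-Tfh MUT, 406 and 233 TPM in Tfh and Tfh MUT, and 161 and 265 TPM in Tfr and Tfr MUT. The 3 sorted populations overlapped one another, and none came near the CD4+ libraries. Cxcr3 rose by 9.16 ± 0.59 (log2 fold change ± SE) in non-Tfh, 9.62 ± 0.60 in Tfh and 9.07 ± 0.59 in Tfr cells relative to CD4+ cells (edgeR, adjusted p = 0.00307, 0.000713 and 0.000587). Here and below, each edgeR SE was worked back from the test. It is the absolute log2 fold change divided by the square root of the quasi-likelihood F statistic. ConA-activated cells stood at 3.64 TPM, above the CD4+ libraries and far below the sorted ones.

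Cxcr6, a receptor for the membrane-bound ligand Cxcl16, was graded. Its TPM was 0.62 and 0.92 in the CD4+ pair (unmarked, then MUT), 61.1 and 97.9 in non-Tfh, 33.1 and 24.96 in Tfh and 11.2 and 4.95 in Tfr cells, and 0.70 with ConA. Non-Tfh, Tfh and Tfr cells followed in that order with no overlap between their pairs. Relative to CD4+ cells Cxcr6 rose by 6.59 ± 0.53, 4.97 ± 0.50 and 3.05 ± 0.47 in log2 (edgeR, adjusted p = 0.00486, 0.00193 and 0.00656).

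Ccr2, which recruits monocytes and effector T cells, was also highest in non-Tfh cells. Its pairs held 0.07 and 0.09 TPM in CD4+, 28.0 and 27.6 TPM in non-Tfh, 16.4 and 8.54 TPM in Tfh and 22.8 and 15.0 TPM in Tfr cells. The Tfh and Tfr pairs overlapped, whereas both non-Tfh libraries exceeded all the others. The rise over CD4+ cells was 8.30 ± 0.39, 6.93 ± 0.37 and 7.52 ± 0.38 in log2 (edgeR, adjusted p = 0.00162, 0.000688 and 0.000397). ConA-activated cells, at 0.10 TPM, lay with the CD4+ libraries. Monocyte and macrophage markers summed to 94.8 and 68.3 TPM in the non-Tfh pair, against 10.9 and 9.6 TPM in the CD4+ pair, with 2 or 3 of 8 genes at 1 TPM or more. Ly6c2, which T cells also express, made up 88.6 and 61.7 TPM of it, and the part of such cells was not tested.

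Of the skin and regulatory receptors, Ccr4 was at 26.7 TPM or more in every sorted or ConA-activated library. It stood at 0.66 and 1.04 TPM in CD4+, 65.6 and 39.3 TPM in non-Tfh, 26.7 and 44.8 TPM in Tfh, 70.0 and 38.2 TPM in Tfr and 46.3 TPM in ConA-activated cells. The sorted pairs overlapped and the ConA library fell within their range. Ccr4 rose by 5.83 ± 0.53, 5.13 ± 0.51 and 5.67 ± 0.52 in log2 in non-Tfh, Tfh and Tfr cells (edgeR, adjusted p = 0.00628, 0.00191 and 0.00126).

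Ccr8, whose ligand Ccl1 is made by activated T cells, was graded from CD4+ over non-Tfh and Tfh to Tfr cells. Its TPM was 0.61 and 3.44 in CD4+, 5.13 and 7.19 in non-Tfh, 52.7 and 17.1 in Tfh, 127 and 236 in Tfr and 142 in ConA-activated cells. The pairs did not overlap, and within CD4+ and Tfh cells the 2 libraries differed more than 3-fold. Ccr8 rose by 4.14 ± 0.97 in Tfh and 6.31 ± 1.00 in Tfr cells over CD4+ cells (edgeR, adjusted p = 0.0272 and 0.0071). In non-Tfh cells the difference of 1.63 ± 0.89 did not pass (edgeR, adjusted p = 0.505). Foxp3, the factor of regulatory T cells, stood at 2.6 and 2.9 TPM in CD4+ and 9.19 and 17.8 TPM in non-Tfh cells. It stood at 143 and 69.2 TPM in Tfh, 433 and 579 TPM in Tfr and 6.31 TPM in ConA-activated cells. The part of regulatory cells in the Ccr8 levels was not tested.

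Ccr10, a receptor for the skin ligand Ccl27a, reached 12.6 TPM in 1 library only. Its level was 0.12 and 0.05 TPM in CD4+, 12.6 and 2.37 TPM in non-Tfh, 0.78 and 2.14 TPM in Tfh, 0.29 and 0.20 TPM in Tfr and 0.05 TPM in ConA-activated cells. The higher non-Tfh library was the unmarked one and the higher Tfh library the MUT one. The CD4+ MUT library held 2 counts, below the 3 counts taken as detected, and the CD4+ library 8. Fold changes over this pair are therefore uncertain in size. Log2 fold changes over CD4+ cells were 6.18 ± 1.10 in non-Tfh (edgeR, adjusted p = 0.0417), 4.0 ± 1.07 in Tfh (0.0401) and 1.25 ± 1.08 in Tfr cells (0.408). The first 2 passed in edgeR and neither passed with limma on log2(TPM + 1) (adjusted p = 0.107 and 0.226).

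Ccr6, the receptor for Ccl20 on mucosal and memory lymphocytes, was highest in Tfr cells. Its pairs were 0.98 and 1.13 TPM in CD4+, 21.1 and 18.1 TPM in non-Tfh, 17.7 and 16.4 TPM in Tfh and 67.4 and 78.3 TPM in Tfr cells. Only the Tfr pair stood clear of the other sorted libraries, and the ConA library held 2.68 TPM. Relative to CD4+ cells Ccr6 rose by 4.18 ± 0.24, 3.87 ± 0.24 and 5.95 ± 0.25 in log2 in non-Tfh, Tfh and Tfr cells (edgeR, adjusted p = 0.00193, 0.000713 and 0.000273). These standard errors were the smallest among the 9 receptors in each of the 3 comparisons.

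Ccr9, the gut-homing receptor for Ccl25, stayed low in all T cells. Its TPM was 2.0 and 1.66 in CD4+, 6.65 and 6.85 in non-Tfh, 0.80 and 2.12 in Tfh, 1.86 and 0.79 in Tfr and 0.09 in ConA-activated cells. The non-Tfh pair was the highest. No difference from CD4+ cells passed with all libraries in edgeR (1.76 ± 0.55, -0.61 ± 0.55 and -0.81 ± 0.54 in log2, adjusted p = 0.187, 0.432 and 0.298). The non-Tfh difference passed with DESeq2 (1.77, adjusted p = 0.0276) and in edgeR without the Tfh or the Tfh MUT library (0.0166 and 0.0145), and the Tfh difference passed without the Tfh MUT library (-1.66, 0.0336).

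Cxcr4 was the only receptor of the 9 that was abundant in CD4+ cells. It stood at 58.6 and 38.1 TPM in CD4+, 51.9 and 32.3 TPM in non-Tfh, 192 and 206 TPM in Tfh, 144 and 206 TPM in Tfr and 18.2 TPM in ConA-activated cells. CD4+ and non-Tfh pairs overlapped, as did Tfh and Tfr pairs, with a gap between the 2 sets. Cxcr4 rose by 1.77 ± 0.35 in Tfh and 1.60 ± 0.35 in Tfr cells (edgeR, adjusted p = 0.0163 and 0.0199) and differed by -0.32 ± 0.34 in non-Tfh cells (adjusted p = 0.808).

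**Figure D4:**
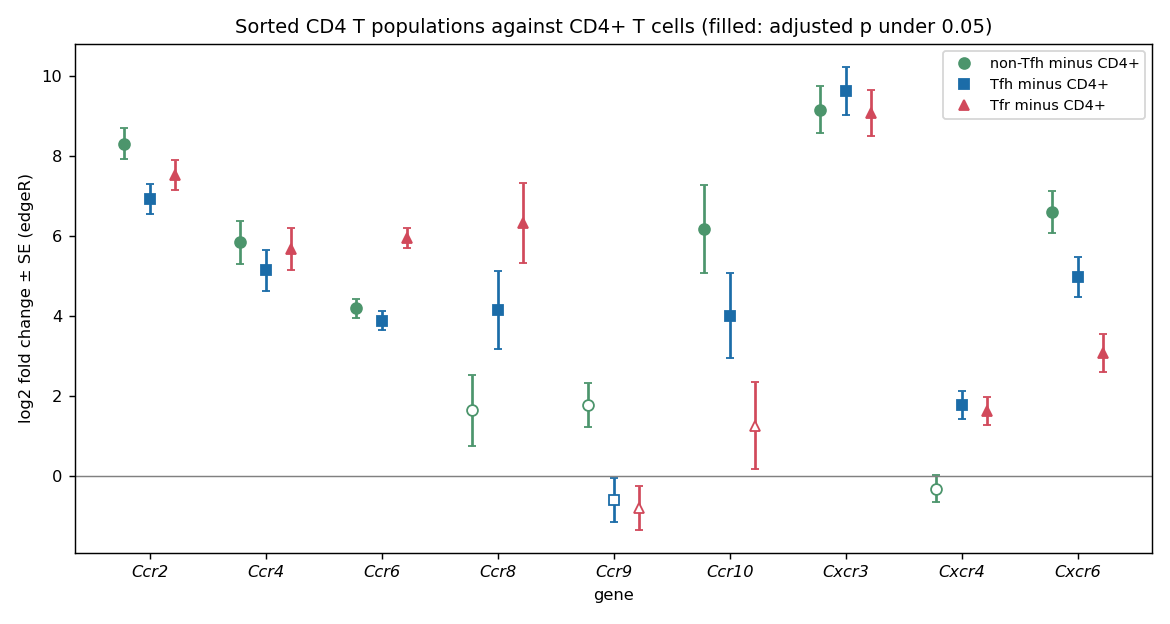
Log2 fold change ± SE (edgeR, SE worked back from the F statistic) of each receptor in non-Tfh, Tfh and Tfr cells relative to CD4+ T cells, 2 libraries per population. Filled symbols passed an adjusted p of 0.05. Cxcr3 lies between 9.07 and 9.62 in all 3 populations, Cxcr6 falls from 6.59 in non-Tfh to 3.05 in Tfr cells, and no symbol of Ccr9 is filled.

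Some of these calls were lost when a library was left out. The log2 value kept its sign in the refits that ended a call. Ccr4 in non-Tfh cells was then at 5.307 to 5.355, against 5.83 with all libraries. Ccr8 in Tfh cells was at 3.03 to 4.158, against 4.142. Each refit also has fewer libraries to give the spread. Whether a lost call reflects the value of the library left out or the smaller fit was not tested. Left out one at a time, the CD4+ or non-Tfh library ended the call of Ccr4 in non-Tfh cells (adjusted p 0.0608 to 0.0618), the CD4+, non-Tfh or non-Tfh MUT library that of Ccr8 in Tfh cells (0.0737 to 0.139), the CD4+ or CD4+ MUT library those of Cxcr4 in Tfh (0.0628 to 0.113) and Tfr cells (0.0633 to 0.139), the CD4+ library that of Cxcr6 in Tfr cells (0.0633), and any library but Tfh and Tfh MUT that of Ccr10 in non-Tfh cells (0.0554 to 0.334). The call of Ccr10 in Tfh cells was lost without any library but non-Tfh MUT and Tfh (0.0535 to 0.206). Leaving out the CD4+ library took the Tfh count from 8 to 5.

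The sorted populations were also compared with one another. Between Tfh and non-Tfh cells, Cxcr4 was higher in Tfh cells by 2.10 ± 0.35 in log2 and Ccr2 lower, at -1.37 ± 0.26 (edgeR, adjusted p = 0.0269 and 0.0388). That is 1 of 9 receptors higher, where 4.03% of genes were higher, and 1 lower, where 2.56% were lower (6.58% either). The median over the receptors was -0.70, against 0.02 over all genes. Ccr9 at -2.37 ± 0.57, Cxcr6 at -1.62 ± 0.41 and Ccr8 at 2.51 ± 0.86 did not pass in edgeR (adjusted p = 0.0656, 0.0766 and 0.142). Ccr9 passed with DESeq2 (0.000714), limma (0.0439) and no MUT term (0.03), and Cxcr6 with DESeq2 (0.00188) and no MUT term (0.0384), whereas limma ended the call of Ccr2 (-1.16, 0.0649). The call of Cxcr4 was lost without either non-Tfh library (adjusted p 0.125 to 0.263) and that of Ccr2 without any of the CD4+, CD4+ MUT, non-Tfh or non-Tfh MUT libraries (0.0583 to 0.322). Without the Tfh MUT and Tfr libraries Ccr4 was at -1.29 in log2 (edgeR). With each library left out in turn, Cxcr4 ran from 1.72 to 2.52 and Ccr2 from -1.78 to -1.01. The number of calls changed widely between these refits, among the receptors and over all genes alike. The comparisons among sorted populations share libraries with one another.

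Tfr cells differed from non-Tfh cells in 6 of 9 receptors, where 14.6% of genes differed, with 3 higher, where 7.88% of genes were higher, and 3 lower, where 6.71% were lower. Ccr8 was higher by 4.68 ± 0.92, Cxcr4 by 1.93 ± 0.35 and Ccr6 by 1.77 ± 0.21 in log2 (edgeR, adjusted p = 0.0246, 0.0211 and 0.00579). Ccr10 fell by 4.92 ± 1.02, Cxcr6 by 3.54 ± 0.45 and Ccr9 by 2.57 ± 0.57 (adjusted p = 0.0292, 0.00697 and 0.0349). Limma on log2(TPM + 1) did not call Ccr10 (-2.44, adjusted p = 0.053). Ccr2, Ccr4 and Cxcr3 differed by -0.78, -0.16 and -0.09 and did not pass in edgeR, and DESeq2 called Ccr2 (-0.77, adjusted p = 0.0458). The receptors' median was -0.16, against 0.02 over all genes. Innate-like and gamma-delta T markers stood beside Cxcr6 and Ccr9 in non-Tfh cells: 3 of 5 measured markers were at 1 TPM or more in both non-Tfh libraries (sums of 7.6 and 9.6 TPM) and none in the Tfr libraries (1.4 and 0.8 TPM), and their part was not tested. All 6 calls were lost without the non-Tfh MUT library, and all but that of Cxcr6 without the non-Tfh library. The calls of Ccr8, Ccr9 and Ccr10 were lost without the Tfr MUT library. Those of Ccr9 and Ccr10 were also lost without either CD4+ library, and that of Ccr10 without the Tfr library. The log2 values kept their sign, with Ccr8 from 4.24 to 5.07 and Cxcr6 from -4.19 to -2.97. The number of calls over all genes also changed widely between these refits. Without the Tfh MUT and Tfr libraries Cxcr3 was at 0.48 in log2 (edgeR).

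Between Tfr and Tfh cells 1 of 9 receptors was called higher, where 0.107% of all genes were, and none lower, where 0.291% were (0.398% either). Ccr6 was higher in Tfr cells by 2.08 ± 0.21 in log2 (edgeR, adjusted p = 0.0304), and the call was lost without any of the CD4+, CD4+ MUT, non-Tfh, non-Tfh MUT, Tfr or Tfr MUT libraries (adjusted p 0.0655 to 0.176). Ccr8 at 2.17 ± 0.85 and Cxcr6 at -1.92 ± 0.42 did not pass in edgeR (adjusted p = 0.479 and 0.162; DESeq2 called Cxcr6, 0.00055), although neither receptor's pairs overlapped. The median over the receptors was -0.17, against -0.02 over all genes. Without the Tfh MUT and Tfr libraries Ccr6 was at 2.27, Cxcr6 at -3.32 and Cxcr4 at 0.81, the last of these against -0.17 with all libraries. This sets the unmarked Tfh library (Cxcr4 at 192 TPM) against the Tfr MUT library (206 TPM) after the MUT term from the CD4+ and non-Tfh pairs (-0.66 for Cxcr4) is taken off, so population and MUT label are separated only by assuming that term to be common. Leaving out the Tfh library alone gave Ccr8 at 3.92 and Ccr10 at -3.96. With each library left out in turn, Ccr6 ran from 1.83 to 2.31, Cxcr6 from -2.62 to -1.40 and Cxcr4 from -0.80 to 0.31.

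With all libraries the MUT label gave no call among the receptors. In edgeR 0 of 9 passed, where 0% of all genes did, none had an unadjusted p under 0.05, and DESeq2 and limma also called 0 of 9. The term tests a change common to the 4 populations, with a median of -0.10 over the receptors and 0.00 over all genes. Ccr2 came nearest, at -0.42 ± 0.20 in log2 (edgeR, adjusted p = 1.0), and was lower in the MUT library of 3 of 4 populations. Pairs differed in both directions: Ccr8 was 52.7 TPM in Tfh and 17.1 TPM in Tfh MUT but 127 TPM in Tfr and 236 TPM in Tfr MUT, and Cxcr3 went from 406 to 233 TPM in the Tfh pair and from 161 to 265 TPM in the Tfr pair. The libraries with more B-cell markers were Tfh MUT in the first pair and the unmarked Tfr in the second. Without these 2 libraries the largest differences were Ccr10 at -2.36, Ccr8 at 1.11, Cxcr4 at -0.66 and Cxcr6 at 0.63 in log2 (edgeR). The MUT term then rests on the CD4+ and non-Tfh pairs alone.

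The other chemokine receptors changed in part in the same populations. Of 11 tested from a list of 14, 2 rose and none fell in non-Tfh cells relative to CD4+ cells: Cx3cr1 by 8.68 ± 0.96 and Cxcr5 by 3.04 ± 0.31 in log2 (edgeR, adjusted p = 0.0103 and 0.00866). In Tfh cells 5 rose and 2 fell, and in Tfr cells also 5 rose and 2 fell. Ccr7, the lymph node homing receptor, fell by 2.88 ± 0.22 in Tfh and by 3.11 ± 0.22 in Tfr cells (adjusted p = 0.00101 and 0.000709), from 632 and 510 TPM in the CD4+ pair to 80.5 and 106 TPM and to 97.3 and 66.0 TPM. Cxcr5, a marker used in the Tfr and non-Tfh sorts, stood at 75.9 and 57.9 TPM in the non-Tfh pair, against 6.29 and 9.08 TPM in the CD4+ pair.

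Of the 16 listed ligands of the receptors 15 were measured, and 7 of these were high enough in the T libraries to be tested. Relative to CD4+ cells, Ccl1, the ligand of Ccr8, rose by 2.25 ± 0.41 in Tfh and 4.10 ± 0.42 in Tfr cells (edgeR, adjusted p = 0.0126 and 0.00176). Cxcl10, a ligand of Cxcr3, rose by 6.27 ± 0.85 and 6.72 ± 0.85 (adjusted p = 0.00495 and 0.0034). No ligand passed in non-Tfh cells (edgeR; the list's median was 0.02). Ccl22, a ligand of Ccr4, was the most abundant ligand in these cells and stood at 1626 TPM in Tfh MUT and 1107 TPM in Tfr, against 210 to 302 TPM in the other 6 libraries of the fit, and these 2 libraries also held the most B-cell markers. The part of B cells in its level was not tested.

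Among 16 genes of receptor signalling, Grk5, a kinase that desensitises receptors, was the only one called in non-Tfh cells (1.08 ± 0.20, edgeR, adjusted p = 0.0475). In Tfh cells 2 rose and 3 fell and in Tfr cells 2 rose and 5 fell. Pik3r5, a regulatory subunit of the kinase that acts downstream of these receptors, fell by 2.02 ± 0.12 in Tfh and by 2.94 ± 0.13 in Tfr cells (adjusted p = 0.000713 and 0.000273). Of 16 transcription factors, 4 rose in non-Tfh cells and none fell, 11 rose and 3 fell in Tfh cells, and 10 rose and 4 fell in Tfr cells. Tbx21, the T-box factor of type 1 helper cells, rose by 7.96 ± 0.52, 7.55 ± 0.52 and 6.81 ± 0.51 (adjusted p = 0.00308, 0.000779 and 0.00074). Foxp3, the factor of regulatory T cells, rose by 5.02 ± 0.53 in Tfh and 7.22 ± 0.58 in Tfr cells (adjusted p = 0.00231 and 0.000905).

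ConA activation was read from a single library and has no test. A rule of size was used instead: the gap in log2(TPM + 1) to each comparison library had to be 2 or more and of the same sign, with 10 TPM or more on the higher side. Relative to the CD4+ pair, 2 of 9 receptors met it as higher, where 2.2% of 20674 genes did, and none as lower, where 1.59% did (3.79% either). Ccr8 was 142 TPM against 0.61 and 3.44 TPM, a difference of 5.01 to 6.48, and Ccr4 was 46.3 TPM against 0.66 and 1.04 TPM, a difference of 4.53 to 4.83. Cxcr3 differed by 1.79 to 1.81 and Cxcr4 by -1.64 to -1.03, short of the rule. B-cell markers in this library summed to 6.3 TPM, the lowest of the T libraries, and its table is 1 of the 4 with the other length gap.

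Primary B cells were then compared with CD4 T cells. In the 7 primary B libraries against the 9 CD4 T libraries, 1 of 9 receptors was higher in B cells, where 23.9% of 12437 genes were, and 6 were lower, where 22.5% were (46.4% either). The T side is uneven: in CD4+ T cells Ccr2, Cxcr3 and Cxcr6 lay below their levels in splenic B cells (1.74, 2.74 and 1.49 TPM). The median log2 difference of the receptors was -3.86, against 0.01 over all genes. Different states of each lineage enter this comparison, so its spread is wide.

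Ccr6 was the receptor that was higher in B cells, by 2.47 ± 0.74 in log2 (edgeR, adjusted p = 0.0125). B libraries ran from 33.2 to 220 TPM with a median of 141 TPM, and T libraries from 0.98 to 78.3 TPM with a median of 17.7 TPM. The ranges overlapped through the Tfr pair and the LPS+IL4 and LPS+a-d-dextran cultures. The average length of the Ccr6 transcripts that were counted varied from 1286 bases in medulla to 1537 bases in Tfh cells.

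Ccr8 was at 0 counts in 6 of the 7 B libraries and at 1 count in the LPS culture, where 3 counts would be 0.057 to 0.177 TPM, and at 0.61 to 236 TPM in T cells. It passed as lower in B cells (edgeR, adjusted p = 3.42e-05), and no fold is given because the B side lies under the floor. Cxcr3 was 0.47 to 2.85 TPM in B cells and lower by 6.27 ± 1.26 in log2 (an edgeR value of -6.27, adjusted p = 0.000959), although its B range lay above both CD4+ T libraries. Cxcr6 at 0.23 to 2.80 TPM (-4.72 ± 1.11, adjusted p = 0.00294) and Ccr2 at 0.01 to 1.74 TPM (-4.23 ± 1.25, adjusted p = 0.0115) were also low throughout the B libraries. Ccr4 (-3.86 ± 1.41, edgeR, adjusted p = 0.034) and Ccr9 (-1.72 ± 0.68, adjusted p = 0.0465) passed narrowly. Among the B libraries Ccr4 stood at 14.3 TPM with LPS+IL4 and at 0.02 to 0.80 TPM in all others. With each library left out in turn, its log2 difference ran from -7.73 to -3.63. The call of Ccr9 was lost with no filter (0.0574) and with limma (0.0865), and both calls were lost when 1 library was left out. For Ccr4 this was non-Tfh or any activated culture but LPS+IL4 (adjusted p 0.0514 to 0.0584), and for Ccr9 any library but Tfh, Tfr MUT, ConA, splenic B and aCD40+IL4 (0.0516 to 0.0996). Cxcr4, at 16.6 to 279 TPM in B and 18.2 to 206 TPM in T cells, did not pass (-0.24 ± 0.55, adjusted p = 0.749), nor did Ccr10 (-1.92 ± 1.14, adjusted p = 0.176).

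The effect of B-cell stimuli was read by the same rule of size, since each stimulus had 1 library and splenic B cells were also 1 library. Cxcr4 stood at 279 TPM in splenic B cells, 66.5 TPM with LPS, 48.8 TPM with LPS+IL21, 41.5 TPM with LPS+IL4, 33.4 TPM with aBCD180, 16.6 TPM with LPS+a-d-dextran and 106 TPM with aCD40+IL4. It met the rule as lower in 5 of the 6 cultures, with differences from -2.05 with LPS to -3.99 with LPS+a-d-dextran, and in aCD40+IL4 the difference was -1.38. Of all genes, 3.03% met the rule with LPS (1.52% higher, 1.51% lower), 3.49% with LPS+IL21 (1.32% and 2.17%) and 4.82% with LPS+IL4 (2.18% and 2.64%). The shares were 5.03% with aBCD180 (2.17% and 2.86%), 7.17% with LPS+a-d-dextran (2.56% and 4.61%) and 2.06% with aCD40+IL4 (0.668% and 1.39%).

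Ccr6 was 220 TPM in splenic B cells and 200 TPM with aCD40+IL4, 177 TPM with LPS, 141 TPM with aBCD180, 114 TPM with LPS+IL21, 55.7 TPM with LPS+a-d-dextran and 33.2 TPM with LPS+IL4. The LPS+IL4 culture met the rule as lower, at -2.70, and the LPS+a-d-dextran culture lay just short of it, at -1.97. No receptor other than Ccr4 met the rule as higher in any culture.

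Ccr4 was 14.3 TPM in the LPS+IL4 culture, against 0.05 TPM in splenic B cells, a difference of 3.86, where 2.18% of genes were higher by the rule. It was 0.80 TPM (47 counts) with aCD40+IL4 and 0.02 to 0.08 TPM, or 1 to 5 counts, in the 4 cultures without IL4. The splenic B and LPS+IL4 tables are among the 4 with the other length gap, the aCD40+IL4 table is not. Both cultures that received IL4 lay above the other 4, and they differed from each other by more than the 4 did. In a fit of the 6 cultures with IL4 and LPS as terms, 0 of 8 receptors passed for IL4, where 0.04% of 12515 genes did (edgeR; 1 receptor, Ccr4, had an unadjusted p under 0.05, limma called none, and Ccr8 was too low to test). Ccr4 was higher with IL4 without passing in edgeR (adjusted p = 0.20) and passed in DESeq2 (adjusted p = 7.9e-07), and no fold is given because 3 of the 4 cultures without IL4 were at 3 counts or fewer. EdgeR called it when the aBCD180 or the aCD40+IL4 culture was left out (adjusted p = 0.0219 and 0.0177). In each of these refits the IL4 term sets the LPS+IL4 library alone against the LPS cultures without IL4, which also give the spread. The remaining culture without LPS is fitted exactly and adds nothing to either. The median over the 8 receptors was 0.32, against 0.01 over all genes.

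**Figure D5:**
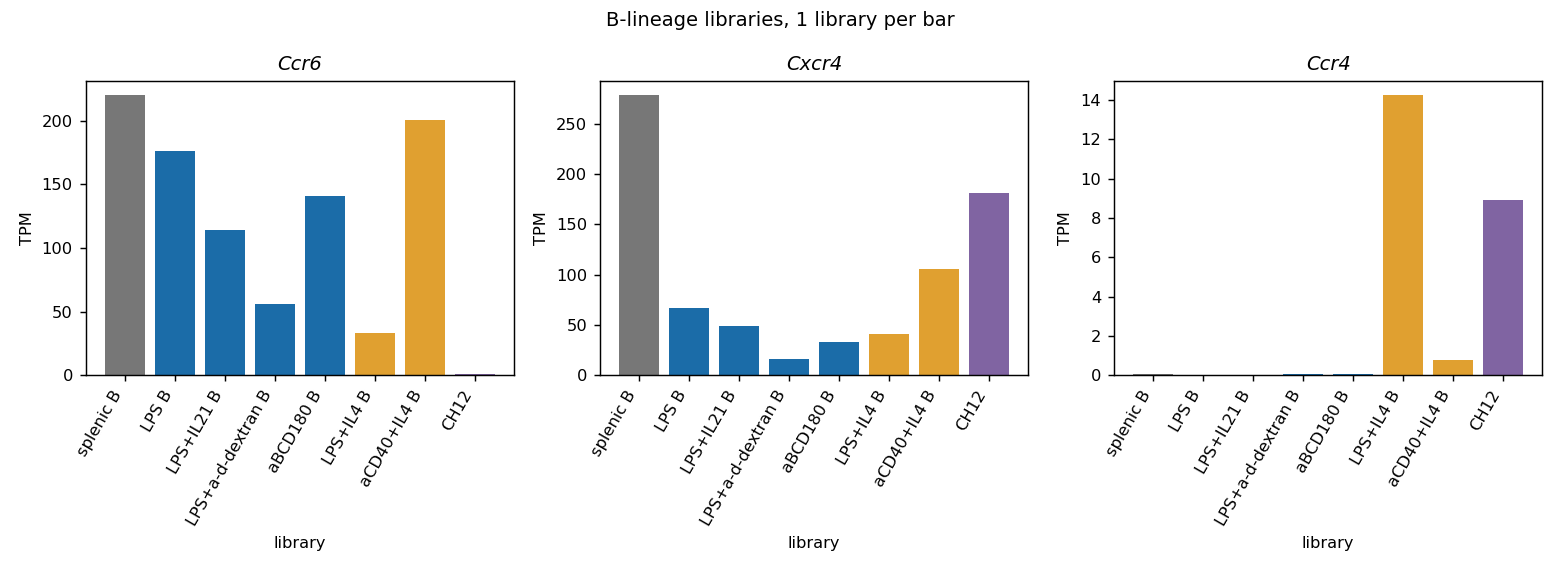
TPM of Ccr6, Cxcr4 and Ccr4 (bars from 0, own scale per panel) in the 8 B-lineage libraries, 1 library per bar, grey for splenic B cells, blue for cultures without IL4, orange for cultures with IL4 and purple for CH12. Cxcr4 is 279 TPM in splenic B cells and 16.6 to 106 TPM in the cultures, and Ccr4 reaches 14.3 TPM with LPS+IL4 and 8.89 TPM in CH12.

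The remaining receptors were low in all primary B libraries. Splenic B cells had the highest Ccr2 of these, at 1.74 TPM, and held monocyte and macrophage markers at 255 TPM (8 of 8 at 1 TPM or more, against 17.3 to 71.0 TPM in the cultures), whose part was not tested. Ccr9 lay between 0.17 and 1.46 TPM, Ccr10 between 0.05 and 1.55 TPM, and Cxcr3 between 0.47 and 2.85 TPM. The aCD40+IL4 culture had the highest Ccr2 and Cxcr6 of the activated cultures, at 1.71 and 2.80 TPM. In that culture 6 of 8 CD8 and NK markers were at 1 TPM or more, with Gzma at 81.8 TPM and Ncr1 at 6.29 TPM, 9 of 10 T-cell markers were too, with Cd3e at 2.12 TPM, and 4 of 6 basophil markers summed with the rest to 11.9 TPM. The part of such cells in these receptor values was not tested.

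The CH12 line held Cxcr4 at 181 TPM, Ccr4 at 8.89 TPM and Ccr10 at 3.44 TPM. Ccr6 was 1.17 TPM there, against 33.2 to 200 TPM in the 6 activated cultures, and met the rule of size as lower, with differences from -6.54 to -3.98. It was 1 of 9 receptors to do so, where 0.406% of genes were lower, 1.21% higher and 1.62% either. Cxcr4 exceeded every activated culture but differed by as little as 0.76. Cxcr3 and Ccr8 were at 0 counts in CH12, where 3 counts would be 0.059 and 0.084 TPM.

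Basophils held Ccr2 at 349 TPM, the highest value of that receptor, and Cxcr4 at 111 TPM. Ccr2 met the rule of size against all 16 primary B and CD4 T libraries, whose highest value was 28.0 TPM in non-Tfh cells, with differences of 3.59 to 8.44. It was 1 of 9 receptors to do so as higher, where 1.87% of genes were, and none was lower than all 16, where 0.319% of genes were (2.19% either). The other 7 receptors were at or below 0.40 TPM. The 6 basophil markers summed to 36254 TPM in this library, and monocyte and macrophage markers to 2782 TPM (8 of 8 at 1 TPM or more, Ly6c2 at 1031 TPM) and neutrophil markers to 3069 TPM (5 of 6). Monocytes also express Ccr2, and the part of such cells in its level was not tested. Among the other chemokine receptors, Cxcr2 at 287 TPM and Ccr1 at 251 TPM were the highest there.

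Outside blood cells the receptors were sparse. In putamen, medulla and cortex Ccr6 stood at 4.43, 3.21 and 3.75 TPM and Cxcr4 at 5.69, 3.87 and 0.88 TPM, and every other receptor was at or below 1.40 TPM, the level of Ccr10 in medulla. Ccr8 was at 0 counts in all 3, where 3 counts would be 0.131 to 0.151 TPM. Cx3cr1, the microglial receptor, was 25.2 to 42.0 TPM in these libraries. Back skin held Cxcr4 at 24.3 TPM, Ccr2 at 4.87 TPM, Cxcr6 at 1.85 TPM and Ccr4 at 1.23 TPM. Ccr8 (2 counts) and Ccr10 (0.68 TPM) were low in skin, where Ccl8, a ligand of Ccr8, stood at 262 TPM and Ccl27a, a ligand of Ccr10, at 84.9 TPM. Cxcl12, the ligand of Cxcr4, stood at 164 TPM there.

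Across the 22 libraries the receptors fell into sets that moved together, given as Pearson's r of log2(TPM + 1) and as description only, since related T libraries dominate each coefficient. Cxcr3 and Cxcr6 reached 0.89, Cxcr3 and Ccr4 0.83, Ccr4 and Ccr8 0.81 and Ccr9 and Cxcr6 0.80. Ccr6 and Cxcr4 were correlated with no other member above 0.34 and 0.47. Over 13896 genes with 10 TPM or more in at least 1 library, the closest genes to Cxcr3 were Ifng (0.97), Cd160 (0.95) and Tbx21 (0.95). Those closest to Ccr8 were Tnfrsf9 (0.99), Rln3 (0.97) and Tnfrsf4 (0.96), and to Ccr4 Ctla4 (0.92), Il2rb (0.92) and Il12rb1 (0.89). Cxcr6 lay closest to Klrb1c (0.98), Samd3 (0.92) and Cxcr3, and Ccr9 to Klrd1 (0.88), Scamp4 (0.85) and Zfp169 (0.83). For Ccr2 the closest were Itga2 (0.95), Il18rap (0.95) and Mmp9 (0.89). Ccr6 was closest to Slc25a53 (0.89), Slx4ip (0.88) and Cd38 (0.86), and Cxcr4 to Cdc14a (0.91), Adam17 (0.91) and Bcl10 (0.90). Ccr10 had no close match, with Il17rb (0.65), Cxcr6 (0.59) and Itgb1 (0.57) at the top.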

How the data were processed

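Poly(A) RNA from 22 mouse libraries was sequenced on an Illumina HiSeq, per the labels. The authors deposited an expected count (estimated reads, not normalized) and a TPM (scaled for length and to a constant sum) per gene, per the file headers, and gave each gene's transcript length as another column. CASAVA 1.8.2, STAR, RSEM, bedtools and mm10 are named per the submitters' processing notes, with settings not given in the sources used here. Of 24911 genes, the 4237 that were not protein-coding held no count in any library and are not used here. Of counts above 0, 86.1% were whole (within 1e-09), and the rest were rounded.

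Counts were fitted with edgeR 4.0.16 under R 4.3.3, using its TMM scaling, its low-count filter and its quasi-likelihood test, with Benjamini-Hochberg adjustment over all genes tested and a threshold of 0.05. The 8 sorted and CD4+ T libraries had population and MUT as terms, the 6 activated B cultures IL4 and LPS. Single libraries were read by a rule of size on log2(TPM + 1). All 9 receptors are named in every comparison. From the other lists, at most 4 genes with the largest change among those called are named, and for each receptor the 3 genes with the highest Pearson r. Other list genes given by TPM, and Ccr7 as a gene that fell, were chosen after their values were seen. Members and lists were chosen with earlier results of these data known. Scripts were tested on simulated data. Alternatives were RLE scaling, no filter, DESeq2 1.42.0, limma 3.58.1, other terms and library sets, a pseudocount of 0.1, a TPM minimum of 1, TMM-scaled CPM, and each library left out. Cxcl11, Trdc and Flg were not analysed here, and 1 gene of the lists is not reported here.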

Additional observations from a re-analysis of the deposited data

Results flagged for a closer look

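Among the 6 activated B cultures, 3 of 8 receptors had 1 culture far from the other 5 (gap over range above Dixon's critical value of 0.625), where chance marks about 1 in 20 groups and the same rule marked 12.2% of the 11519 genes at 1 TPM or more in at least 1 of these cultures. Ccr4 was 14.25 TPM with LPS+IL4 (gap over range 0.79). Ccr2 was 1.71 TPM (0.699) and Cxcr6 2.8 TPM (0.672), both with aCD40+IL4, the culture in which CD8 and NK markers summed to 113 TPM against at most 6.7 TPM in the other cultures. The part of such cells was not tested.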

How the results depend on the processing

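Of 37 receptor differences past the threshold, 215 refits with another setting kept 209 past it in the same direction, lost 6 and reversed none, and 70 of 352 refits without 1 library lost the call. Without 1 library the number of receptors called changed in every comparison except MUT, and between sorted populations some refits kept no receptor call. The number of all genes called changed in every comparison, so such changes were not particular to the receptors. For B against T, refits called 5 to 7 receptors, where 5038 to 6648 of all genes were called. Tfh against non-Tfh gave 2 receptors, 4 with DESeq2, 4 with no MUT term and 8 without the Tfh MUT and Tfr libraries. Tfr against Tfh gave 1, 2 with DESeq2 and 3 without those libraries. MUT gave 0 and 4 without them, and IL4 gave 0 and 1 with DESeq2. Without those 2 libraries Cxcr4 in Tfr against Tfh was 0.81 (adjusted p = 0.00413, edgeR), Cxcr3 in Tfr against non-Tfh 0.48 (0.00806) and Cxcr6 for MUT 0.63 (0.012), each with the opposite sign to the value from all libraries. There 1 unmarked Tfh and 1 Tfr MUT library remain and are fitted exactly, so the spread comes from the CD4+ and non-Tfh pairs alone. The Tfr and Tfh values also depend on a MUT term from those pairs (-0.66 for Cxcr4). The cause was not tested. Counts over all genes moved more: non-Tfh against CD4+ had 503 calls, 1204 with DESeq2 and 3134 without those 2 libraries, Tfh against CD4+ 3453 and 5484 without them, Tfr against CD4+ 3968 and 6355 without them, Tfh against non-Tfh 860, 2312 with DESeq2, 1500 with no MUT term and 3221 without them, Tfr against non-Tfh 1907, 3359 with DESeq2 and 4938 without them, Tfr against Tfh 52, 621 with DESeq2, 99 with no filter, 109 with limma, 138 with no MUT term and 1033 without them, MUT 0, 2 with DESeq2 and 478 without them, and IL4 5, 463 with DESeq2, 21 with no filter, 0 with limma and 3 with IL4 alone. For the size rule, only the number of receptors meeting it was compared under its 3 alternatives, not which ones. In each comparison that number stayed within a factor of 1.5. No paired analysis was possible because the labels carry no replicate numbers to use as a block, and the MUT term is the comparison within populations.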
